A study of Mus musculus with 6 samples.

Results

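The genes described here are 39 genes of brain endothelial cells and of the blood-brain barrier, among the 22322 genes of the deposited table. They were chosen by symbol as genes of endothelial identity, transcription control, tight junctions, barrier transport, vascular growth signals, fenestration and leukocyte adhesion, a rule that names no measured value, although the genes were chosen with earlier results of these data known. Each symbol was found once, through its Ensembl identifier, in the GENCODE M21 annotation of GRCm38. RNA was sequenced from the arcuate nucleus (ARC) of the hypothalamus, cut from frozen brain sections by laser capture microdissection (LCM). The NCD group held 3 samples from male mice on an ordinary diet with 16.5% fat, and the HFD group held 3 samples from male mice on a diet with 60% fat. Both diets began when the mice were 4 weeks old and lasted 16 weeks. The study kept C57BL/6J wild type mice, and it used a Kiss1-Cre by R26R-EYFP cross to show where Kiss1 neurons lie in the ARC. Neither the labels nor the methods say which of these mice gave the captured tissue or how many went into each sample, so p-values measure the spread between these samples, which may be technical. Total counts were 15925648, 9937632 and 6882449 in NCD1, NCD2 and NCD3, and 8024664, 10479778 and 5171381 in HFD1, HFD2 and HFD3. With these totals, a count of 0 would have allowed a level of up to 0.188 CPM, a count scaled to a common library total, in NCD1 and 0.58 CPM in HFD3, both taken over the total counts without further scaling.

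Endothelial cells line every blood vessel, and in the brain they form the blood-brain barrier. There they are joined by tight junctions, carry few vesicles, bring in glucose and other nutrients through dedicated carriers and pump many drugs and metabolites back into the blood. The barrier is kept by signals from pericytes and astrocytes, and the fenestrated vessels of the median eminence, which borders the ARC, lack it and carry the diaphragm protein Plvap instead. The tissue taken by LCM holds every cell type of the region, so vessel RNA is only a part of each library, and in such bulk samples fewer cells of a type and less RNA per cell cannot be told apart.

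All 39 genes had counts in every library. The usual endothelial genes were all present, among them Cldn5, Pecam1, Cdh5, Flt1, Kdr, Tek, Tie1 and Esam. On the deposited FPKM scale, which divides by transcript length and so allows levels to be compared between genes, 13 of the 39 genes had a mean of at least 10, 22 lay between 1 and 10, and 4 lay under 1. Bsg, a chaperone of lactate carriers that neurons and glia also express, stood far above the rest with a mean level of 580 FPKM. Itm2a, a membrane protein of brain endothelium, followed at 67.5 FPKM, then Ly6c1 at 50.7 FPKM and the glucose carrier Slc2a1 at 50.5 FPKM. The lowest levels were those of the transcription factor Erg, at 0.295 FPKM, and of the angiopoietin Angpt2, at 0.445 FPKM. Erg had only 4, 9 and 2 counts in the NCD libraries and 8, 6 and 9 in the HFD libraries, and was the single gene of the 39 that did not pass the filter on low counts.

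**Figure D1:**
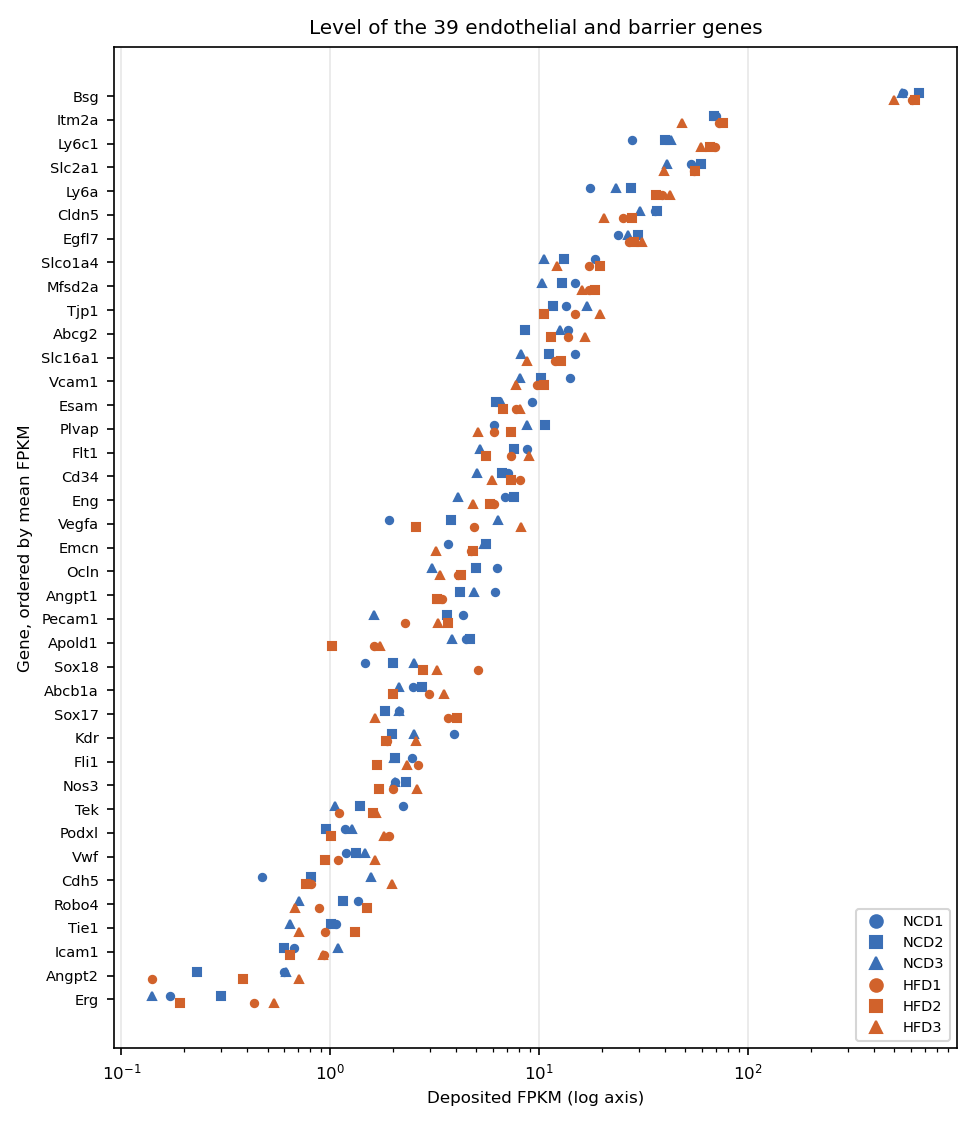
Deposited FPKM (log axis) of the 39 genes, ordered by their mean, with 1 point per library, circles, squares and triangles for replicates 1, 2 and 3, blue for NCD and orange for HFD. The genes span from 0.295 FPKM for Erg to 580 FPKM for Bsg, and for most genes the points of both diets mix.

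Most endothelial and barrier genes differed little in level between the diets, and the few with larger differences went in both directions. The log2 fold change, HFD against NCD, was above 0 for 18 of the 38 genes tested and below 0 for 20, with a median of −0.01 against 0.00 for all 14188 genes tested. It lay within 0.5 of 0 for 32 of the 38 genes (84.2%), against 90.9% of all genes tested. None of the 38 passed an adjusted p of 0.05 in edgeR's quasi-likelihood test (background 0.0564%, 8 genes). Apold1 was called with DESeq2, where 19 genes of the whole table were, and also in edgeR with all genes of at least 1 count (15 genes), with a replicate block (17 genes) and with library size, as a log2 total, in the model (15 genes). At an unadjusted p under 0.05 there were 7 genes of 38 (18.4%), where 2.3% of all genes tested lay under it. Without HFD1 there were 3 such genes of the 38 beside 197 in the whole table, and without NCD2 there were 4 beside 226, against 7 beside 326 with all libraries. Without HFD2 there were 6 beside 659, and without NCD3 there were 6 beside 1178, so that the count among the 38 did not grow with that of the whole table. Of the 7, Ly6c1, Ly6a, Sox18 and Mfsd2a were higher in HFD (10.5% of the 38, background 1.21%), and Apold1, Cldn5 and Angpt1 were lower (7.89%, background 1.09%). With the study's added demand of a change above 1.5-fold, 5 remained (13.2%, background 1.9%), since Cldn5 and Mfsd2a changed by less. The 3 libraries of one diet all lay above the 3 of the other for 8 of the 38 genes (21.1%), against 6.47% of all genes tested, and these were the same 7 genes and Abcg2. Because the genes were chosen with earlier results of these data known, these shares only describe the list and were not tested against the background. The median standard error of a log2 fold change was 0.28, and the 95% interval stayed within 1 log2 unit of 0 for 23 of the 38 genes. For the other 15, Apold1 among them, the interval reached a 2-fold difference or more, which was not excluded with 3 samples per diet.

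**Figure D2:**
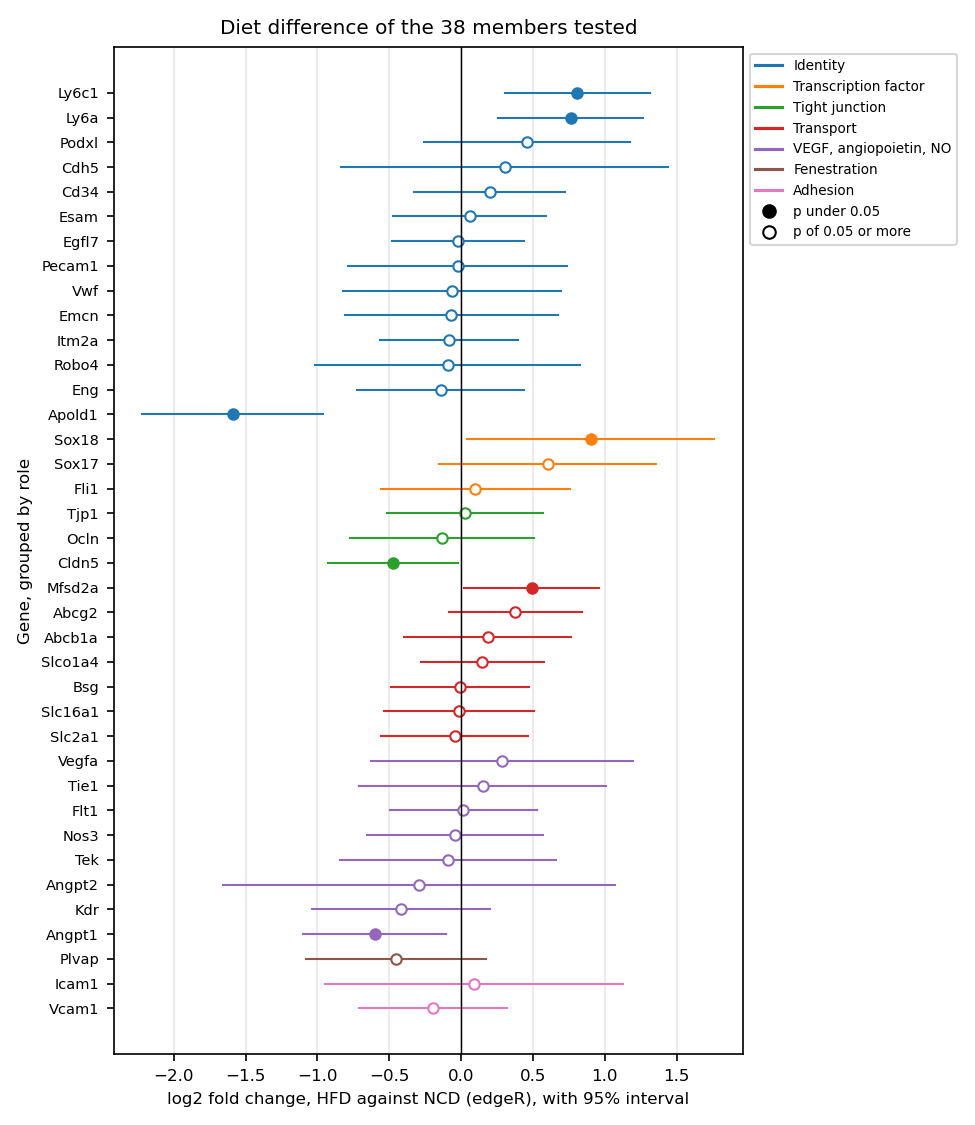
log2 fold change, HFD against NCD, of the 38 genes tested (points) with its 95% interval (lines), in edgeR's fit, grouped and coloured by role, filled where the unadjusted p was under 0.05. The 7 filled points lie on both sides of 0, from −1.59 for Apold1 to 0.90 for Sox18, and most intervals cover 0.

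Apold1, an early response gene of endothelial cells that lies at chr6:134981718-134986836 (GRCm38), showed the largest difference of the 38 genes. Its levels were 15.2, 16.8 and 14.1 CPM in NCD1 to NCD3 and 5.72, 3.75 and 6.02 CPM in HFD1 to HFD3. The lowest NCD library was more than 2 times as high as the highest HFD library, and the libraries within each diet lay close together. Averaged over the libraries, this was 15.4 ± 1.33 CPM under NCD and 5.16 ± 1.24 CPM under HFD (SD, n = 3 each), 3.01-fold lower in the fit. On the log2 scale the fitted difference was −1.59 ± 0.29 (SE), with a 95% interval of −2.22 to −0.96 (edgeR, adjusted p = 0.17). Its adjusted p ranged from 0.00247 with DESeq2 to 0.9999 without NCD2 over 16 alternative settings, and its unadjusted p was under 0.05 in all 16. A two-sided exact permutation test of 3 against 3 samples cannot go below p = 0.1, and gave 0.1 for Apold1 as for each gene whose diets did not overlap.

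Genes that neurons and other cells switch on within minutes of stimulation were lower in the same libraries. The summed level of 8 such immediate early genes, Fos, Fosb, Junb, Egr1, Egr2, Nr4a1, Arc and Dusp1, was 431, 695 and 604 CPM in NCD1 to NCD3 and 122, 124 and 163 CPM in HFD1 to HFD3. All 8 were lower in HFD at an unadjusted p under 0.05, 6 of them at an adjusted p under 0.05 (edgeR), and their median log2 fold change was −2.01. The most abundant of them, Junb, had a mean level of 35.2 FPKM and a log2 fold change of −1.74 (edgeR, adjusted p = 0.0136). Without NCD2, HFD1 or HFD2 the whole table held 1 gene at an adjusted p under 0.05 in place of 8, so at most 1 of these calls was left there. The part of these 8 genes in the difference in Apold1 was not tested. The promoter of Apold1 is shown because the study compared targets of CREB1, a factor that binds cyclic AMP response elements, and because ETS factors such as Erg and Fli1 act at many endothelial promoters; Cldn5, the tight junction gene that was also lower, is given for comparison. Both runs come from RefSeq (GRCm38.p6) and cover 250 bases before and 50 bases after the RefSeq start, on the plus strand. They lie at chr6:134981751-134982050 and chr16:18776597-18776896. The RefSeq start used for Apold1 lies inside the GENCODE gene, so its window falls wholly within chr6:134981718-134986836 and not before that gene's first base. Capitals mark AGGAAG and TGACG on either strand. AGGAAG is a longer form of the GGAA core bound by ETS factors, and TGACG is a part of the cyclic AMP response element. GGAA outside AGGAAG, which the Apold1 run also holds, was not marked.
Apold1: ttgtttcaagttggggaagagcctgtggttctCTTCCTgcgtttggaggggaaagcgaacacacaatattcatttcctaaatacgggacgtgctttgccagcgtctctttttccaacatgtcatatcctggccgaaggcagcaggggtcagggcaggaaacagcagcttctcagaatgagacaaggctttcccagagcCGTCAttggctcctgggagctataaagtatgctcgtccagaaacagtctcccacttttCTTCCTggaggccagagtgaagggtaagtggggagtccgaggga
Cldn5: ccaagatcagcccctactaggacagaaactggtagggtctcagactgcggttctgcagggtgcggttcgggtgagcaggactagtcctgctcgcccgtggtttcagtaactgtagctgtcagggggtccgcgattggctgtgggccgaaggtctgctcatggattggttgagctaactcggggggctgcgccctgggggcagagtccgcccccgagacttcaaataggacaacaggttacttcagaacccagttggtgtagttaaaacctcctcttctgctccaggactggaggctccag
The Apold1 window holds 2 matches to AGGAAG, both as its reverse complement, and 1 to TGACG, as its reverse complement, and the Cldn5 window holds neither. The window of Mfsd2a, a gene that was higher in HFD, was also read and holds neither. RefSeq promoters were at hand for 24 of the 39 genes, with 33 windows of 300 bases. AGGAAG was found in 17 of the 33 windows (51.5%), against 35.4% of all 32851 promoter windows, and TGACG in 7 (21.2%), against 20.8%. The matches to the 2 motifs share no bases in the Apold1 window, and a match describes the letters and not a bound site.

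The endothelial identity genes held the clearest higher levels in HFD, in a neighbouring pair of the Ly6 family, whose small surface proteins are widely used to mark mouse endothelium. Ly6c1 (chr15:75044018-75048830) measured 21.9, 34.0 and 37.0 CPM in NCD1 to NCD3 and 57.5, 56.2 and 48.0 CPM in HFD1 to HFD3. Every HFD library lay above every NCD library, and NCD1 was the lowest of all. Averaged over the libraries, this was 31.0 ± 8.02 CPM under NCD and 53.9 ± 5.18 CPM under HFD (SD, n = 3 each). Ly6c1 had a log2 fold change of 0.81 ± 0.23 (SE), with an interval of 0.30 to 1.31 (edgeR, adjusted p = 0.999). Ly6a (chr15:74994877-74998031), known as Sca-1, measured 14.2, 23.3 and 20.0 CPM in NCD1 to NCD3 and 31.3, 31.8 and 34.2 CPM in HFD1 to HFD3. Its 3 HFD libraries were close together and all above the NCD libraries, of which NCD1 was again the lowest. For Ly6a the log2 fold change was 0.76 ± 0.23 (SE), with an interval of 0.26 to 1.27 (edgeR, adjusted p = 0.999). The unadjusted p stayed under 0.05 for Ly6c1 in 17 of 17 alternative settings and for Ly6a in 16 of 16. The near-identical neighbour Ly6c2 had at most 2 counts in any library, and Ly6c1 and Ly6c2 summed gave a log2 fold change of 0.81.

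**Figure D3:**
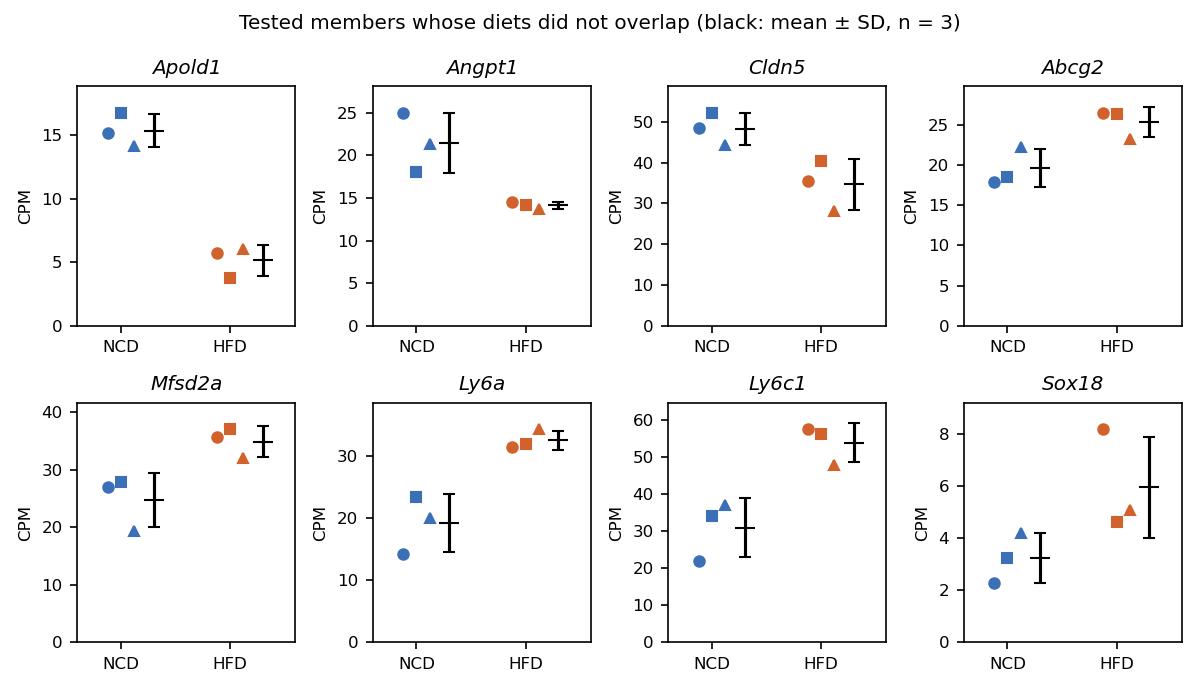
CPM of the 8 genes whose diets did not overlap, with 1 point per library (circles, squares and triangles for replicates 1, 2 and 3, blue for NCD and orange for HFD) and the mean ± SD of each diet (n = 3) in black. Relative to its level, the gap is widest for Apold1, between 14.1 CPM for the lowest NCD library and 6.02 CPM for the highest HFD library, and it is narrowest for Abcg2, with Cldn5 and Sox18 next.

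Apart from Apold1 and the Ly6 pair, the diets overlapped for the other 11 of the 14 endothelial identity genes. Pecam1, the adhesion molecule of endothelial contacts, measured 13.5, 11.5 and 5.42 CPM in NCD1 to NCD3 and 7.46, 12.5 and 10.3 CPM in HFD1 to HFD3. The diets overlapped widely, with the highest and the lowest level both in NCD. Pecam1 had a log2 fold change of −0.02, with an interval of −0.79 to 0.74. Cdh5, the endothelial cadherin, had a log2 fold change of 0.30 (interval −0.84 to 1.44). Its highest levels, 6.47 and 7.71 CPM, were in NCD3 and HFD3, the smallest library of each diet. When 1 library was left out, the log2 fold change of Cdh5 ranged from −0.22 without HFD3 to 0.88 without NCD3. With library size, as a log2 total, in the model it was −0.28. The log2 fold changes of the remaining 9 genes of the group ranged from −0.14 for Eng, a co-receptor for TGF-beta, to 0.46 for the sialomucin Podxl (interval −0.26 to 1.18). The best covered of the 9, Itm2a, measured 117 to 128 CPM in NCD, and 126, 136 and 81.5 CPM in HFD1 to HFD3, with HFD3 alone low.

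The Sox transcription factors, which direct arterial and vascular development, were measured at low levels. Sox18 (chr2:181669836-181671640) had 2.29, 3.26 and 4.21 CPM in NCD1 to NCD3 and 8.20, 4.63 and 5.08 CPM in HFD1 to HFD3. The diets did not overlap, but NCD3 and HFD2 were close, and HFD1 stood above the rest. Sox18 had a log2 fold change of 0.90 ± 0.40 (SE), with an interval of 0.04 to 1.76 (edgeR, adjusted p = 0.999). Its unadjusted p was above 0.05 without NCD1, where the log2 fold change was 0.68, without NCD2 (0.91) and without HFD1 (0.60). Sox17 measured 3.66 to 5.27 CPM in NCD and 4.70 to 8.38 CPM in HFD, with a log2 fold change of 0.60 (interval −0.15 to 1.36). Without HFD3 it was 0.79, with an unadjusted p under 0.05. Fli1, an ETS factor of endothelium and blood cells, had a log2 fold change of 0.10 (interval −0.56 to 0.76).

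Of the 3 tight junction genes, Cldn5 alone differed at an unadjusted p under 0.05. Cldn5 (chr16:18776847-18778262), the claudin that seals brain endothelial junctions, measured 48.4, 52.2 and 44.4 CPM in NCD1 to NCD3 and 35.5, 40.4 and 28.0 CPM in HFD1 to HFD3. All HFD libraries lay below all NCD libraries, with HFD3 the lowest. Averaged over the libraries, this was 48.3 ± 3.92 CPM under NCD and 34.7 ± 6.24 CPM under HFD (SD, n = 3 each), 1.39-fold lower in the fit. Cldn5 had a log2 fold change of −0.48 ± 0.21 (SE), with an interval of −0.93 to −0.02 (edgeR, adjusted p = 0.999). The unadjusted p was above 0.05 without NCD2, HFD1 or HFD3, where the log2 fold change was −0.42, −0.49 and −0.35. Ocln, the occludin of the same junctions, measured 10.7 to 19.1 CPM in NCD and 9.41 to 15.7 CPM in HFD, with a log2 fold change of −0.13 (interval −0.77 to 0.51). Tjp1, a scaffold protein under tight junctions that many cell types use, had a log2 fold change of 0.03 (interval −0.51 to 0.57), and HFD3, at 79.6 CPM, lay above the other libraries, at 40.7 to 59.2 CPM.

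Of the 7 transport genes, 4 had a log2 fold change above 0 and 3 below it, and only the lipid carrier Mfsd2a had an unadjusted p under 0.05. Mfsd2a (chr4:122946850-122961188), which carries lysophosphatidylcholine with docosahexaenoic acid into the brain and restrains vesicle transport through the endothelium, measured 27.0, 27.9 and 19.4 CPM in NCD1 to NCD3 and 35.7, 37.1 and 32.0 CPM in HFD1 to HFD3. The diets did not overlap, and NCD3 was the lowest library. Mfsd2a had a log2 fold change of 0.49 ± 0.22 (SE), with an interval of 0.02 to 0.96 (edgeR, adjusted p = 0.999). Leaving out NCD2, NCD3, HFD1 or HFD2 took its unadjusted p above 0.05, with log2 fold changes of 0.58, 0.35, 0.48 and 0.44. Abcg2, an efflux pump of the luminal membrane, measured 17.9, 18.5 and 22.3 CPM in NCD1 to NCD3 and 26.5, 26.3 and 23.1 CPM in HFD1 to HFD3. The diets did not overlap, yet NCD3 and HFD3 almost met, and the log2 fold change of Abcg2 was 0.38 (interval −0.09 to 0.84).

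The carriers of the main fuels differed little. Slc2a1, the barrier's glucose carrier, measured 138, 157 and 107 CPM in NCD1 to NCD3 and 142, 153 and 94.6 CPM in HFD1 to HFD3. Replicate 3 was the lowest in both diets, and otherwise the diets overlapped. Slc2a1 had a log2 fold change of −0.04, with an interval of −0.55 to 0.47, which holds no change above 1.5-fold in either direction. The carrier of lactate and ketone bodies, Slc16a1, had a log2 fold change of −0.02 (interval −0.54 to 0.51), and its partner Bsg one of −0.01 (interval −0.49 to 0.47). For Abcb1a, which encodes P-glycoprotein, the value was 0.18 (interval −0.40 to 0.76), and for Slco1a4, an organic anion carrier, 0.15 (interval −0.28 to 0.58).

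Vascular growth signals pair ligands, often made by other cells, with receptors on the endothelium. Angpt1 (chr15:42424723-42676977), the ligand that activates the receptor Tek, measured 24.98, 18.0 and 21.4 CPM in NCD1 to NCD3 and 14.5, 14.2 and 13.7 CPM in HFD1 to HFD3. The HFD libraries were nearly equal and all lay below the NCD libraries. Averaged over the libraries, this was 21.5 ± 3.48 CPM under NCD and 14.2 ± 0.405 CPM under HFD (SD, n = 3 each), 1.52-fold lower in the fit. Its log2 fold change was −0.60 ± 0.23 (SE), with an interval of −1.10 to −0.10 (edgeR, adjusted p = 0.999). Without NCD1 or HFD1 the unadjusted p was above 0.05, at log2 fold changes of −0.48 and −0.62. Angpt2, the competing ligand, was too sparse to compare, with 0.497 to 2.45 CPM over the libraries and an interval of −1.66 to 1.07. Their receptor Tek had a log2 fold change of −0.09 (interval −0.84 to 0.66), and the related receptor Tie1 one of 0.15 (interval −0.71 to 1.01).

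Vegfa, the main growth factor of vessels, measured 6.14, 12.5 and 18.7 CPM in NCD1 to NCD3 and 14.5, 8.18 and 22.6 CPM in HFD1 to HFD3. The libraries of each diet differed more than 2-fold among themselves, and replicate 3 was the highest in both. For Vegfa the log2 fold change was 0.28, with an interval of −0.63 to 1.20. When 1 library was left out it ranged from −0.11 without HFD3 to 0.69 without NCD3. With library size, as a log2 total, in the model it was −0.29. Kdr, the signalling receptor of Vegfa, had a log2 fold change of −0.42 (interval −1.04 to 0.20), with NCD1 high at 22.2 CPM and the other 5 libraries at 11.1 to 15.3 CPM. When 1 library was left out, the value for Kdr ranged from −0.61 without NCD2 to −0.14 without NCD1. Flt1, the decoy receptor, had one of 0.02 (interval −0.49 to 0.53), and Nos3, the endothelial nitric oxide synthase, one of −0.04 (interval −0.66 to 0.57). The Nos3 locus overlaps Atg9b on the opposite strand, and reads of the 2 genes cannot be told apart where the counting did not use strand, which the sources used here do not state.

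Plvap, the diaphragm protein of fenestrated vessels, measured 11.6, 21.4 and 17.9 CPM in NCD1 to NCD3 and 12.1, 14.98 and 9.78 CPM in HFD1 to HFD3. NCD1 lay among the HFD libraries, and the other NCD libraries above them. Plvap had a log2 fold change of −0.45 (interval −1.08 to 0.18), and without NCD1 it was −0.68, with an unadjusted p under 0.05. The adhesion molecules that bind leukocytes at inflamed vessels did not separate the diets. Icam1 was measured from only 12 to 27 counts per library, at 1.63, 1.53 and 2.86 CPM in NCD1 to NCD3 and 2.36, 1.68 and 2.26 CPM in HFD1 to HFD3. Its log2 fold change was 0.09 with an interval of −0.95 to 1.12. Vcam1 measured 46.4, 35.4 and 28.9 CPM in NCD1 to NCD3 and 33.4, 37.6 and 25.6 CPM in HFD1 to HFD3. Replicate 3 was the lowest in both diets, and the log2 fold change of Vcam1 was −0.20 (interval −0.71 to 0.32).

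No library held the highest or the lowest level of all these genes. HFD3, the smallest library, held the highest level of 8 of the 38 genes and the lowest of 10, and NCD3, the smallest of its diet, the highest of 1 and the lowest of 9. NCD1, the largest library, held the highest level of 9 genes and the lowest of 7. NCD3 and HFD3 also had the largest shares of mitochondrial counts, 6.57% in NCD3 and 5.77% in HFD3 against 3.20% to 4.24% in the others. Replicate 3 was the lowest of its diet in both diets for 11 of the 38 genes (28.9%), among them Cldn5, Slc2a1, Slc16a1 and Mfsd2a, against 23.6% of all genes tested. It was the highest in both for 3 (7.89%), Cdh5, Vegfa and Angpt2, against 21.7%. Without NCD3 and HFD3, 7 of the 38 genes had an unadjusted p under 0.05, where the whole table gave 716 such genes in place of 326. They no longer included Cldn5 (log2 fold change −0.40) and Mfsd2a (0.41), and they did include Sox17 (0.91) and Abcg2 (0.54).

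**Figure D4:**
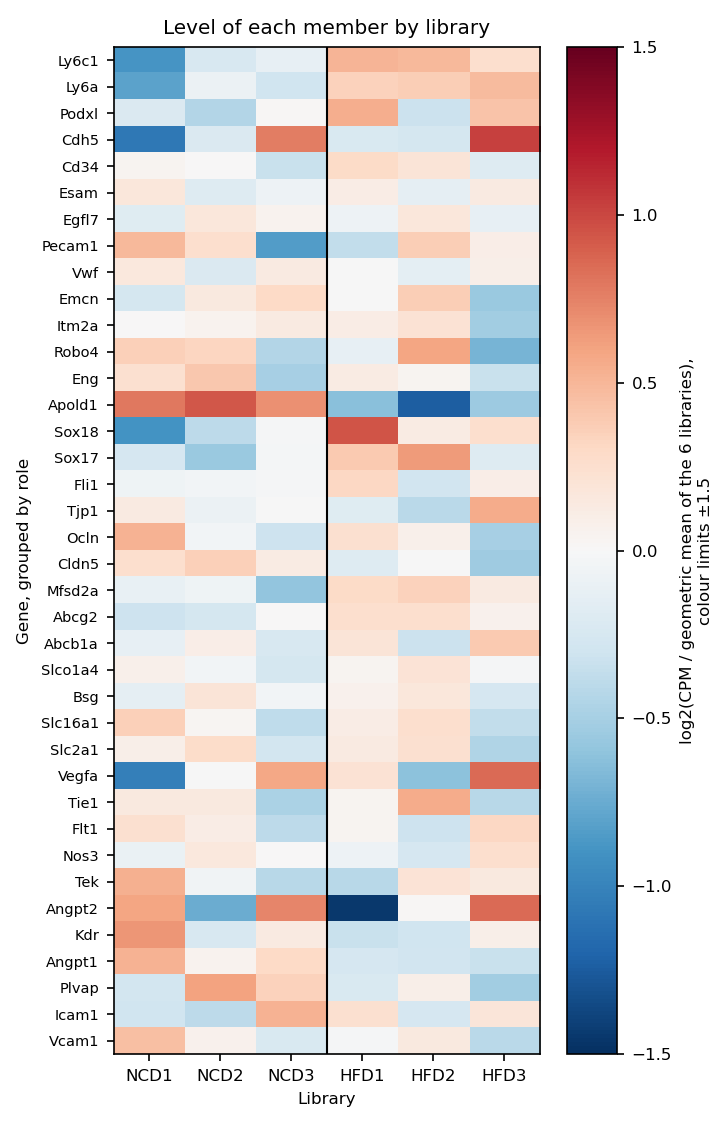
Level of each of the 38 genes tested in each library, as the log2 of its CPM over the geometric mean of the 6 libraries (colour), with genes grouped by role and a line between NCD and HFD. No library is high or low for all genes, and Apold1, Ly6c1 and Ly6a show the diets as separate blocks.

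Genes of the same vascular functions outside the 39 were read for comparison, as 92 genes in 7 lists, of which 82 were tested. Of these 82 genes, 3 had an unadjusted p under 0.05 (3.66%), beside the background of 2.3%, and all 3 were lower in HFD. The count was 7 without NCD3 and 7 without HFD2, where the whole table gave 1178 and 659 such genes, and 6 with a replicate block, beside 589. Cav1, the coat protein of caveolae, measured 19.0, 17.7 and 16.3 CPM in NCD1 to NCD3 and 11.2, 13.2 and 4.89 CPM in HFD1 to HFD3. The diets did not overlap, with HFD3 lowest, and the log2 fold change of Cav1 was −0.83 (edgeR, adjusted p = 0.999). Wnt7b, a ligand from neural cells that maintains the barrier, measured 33.7, 28.1 and 20.6 CPM in NCD1 to NCD3 and 16.8, 22.0 and 15.4 CPM in HFD1 to HFD3. NCD3 and HFD2 overlapped, and the log2 fold change of Wnt7b was −0.60 (edgeR, adjusted p = 0.999). Gkn3, a marker of brain arteries, measured 2.89, 5.70 and 6.32 CPM in NCD1 to NCD3 and 0.497, 2.07 and 2.26 CPM in HFD1 to HFD3, a log2 fold change of −1.62 (edgeR, adjusted p = 0.999). Its diets did not overlap, but HFD1 held less than 1 CPM.

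The median log2 fold change of the 82 genes was −0.07. Of 19 further endothelial identity genes tested, 6 were higher and 13 lower, and the smallest p belonged to Klf4, a flow-responsive factor, with a log2 fold change of −1.003 (interval −2.05 to 0.05). Of 9 junction genes 3 were higher and 6 lower, with Cldn12 first at −0.52, and of 15 transport genes 7 were higher and 8 lower, with the insulin receptor Insr first at 0.48. The caveolar list had 2 higher and 4 lower, the VEGF, Notch and Wnt list 9 and 11, and the artery and vein list 4 and 4. Of 12 genes of endothelial activation, 5 could be tested, with Plat, the tissue plasminogen activator, first at −0.43. The remaining 7, including the selectins Sele and Selp and the chemokines Ccl2 and Cxcl10, were too low to test, and Sele had 10 counts in NCD1 and none in the other libraries.

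Markers of the cells that surround vessels were read beside these genes. The 9 pericyte markers summed to 271, 274 and 218 CPM in NCD1 to NCD3 and 249, 271 and 230 CPM in HFD1 to HFD3, and none of the 8 tested had a p under 0.05. Their most abundant gene per length, Vtn, had a log2 fold change of −0.07. The 5 smooth muscle markers were all lower in HFD, with summed levels of 68.1 ± 10.8 CPM under NCD and 52.3 ± 8.85 CPM under HFD (SD, n = 3 each). The sums were 77.7, 70.1 and 56.4 CPM in NCD1 to NCD3 and 43.9, 51.6 and 61.5 CPM in HFD1 to HFD3. HFD3 lay above NCD3, so the diets overlapped. Acta2, the actin of smooth muscle, had a log2 fold change of −0.83 and the actin-binding Tagln one of −1.05, both with an unadjusted p under 0.05, while Myl9, the most abundant of the 5, had one of −0.01. The 5 red blood cell markers were all lower, none with an unadjusted p under 0.05, with summed levels of 782, 2488 and 1966 CPM in NCD1 to NCD3 and 1687, 1156 and 824 CPM in HFD1 to HFD3. The 5 perivascular fibroblast markers summed to 132 CPM in HFD3 and to 42.9 to 62.5 CPM in the other libraries, led by Dcn. No marker on these 4 lists was at 0 in every library, and their part in the differences of the endothelial genes was not tested.

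**Figure D5:**
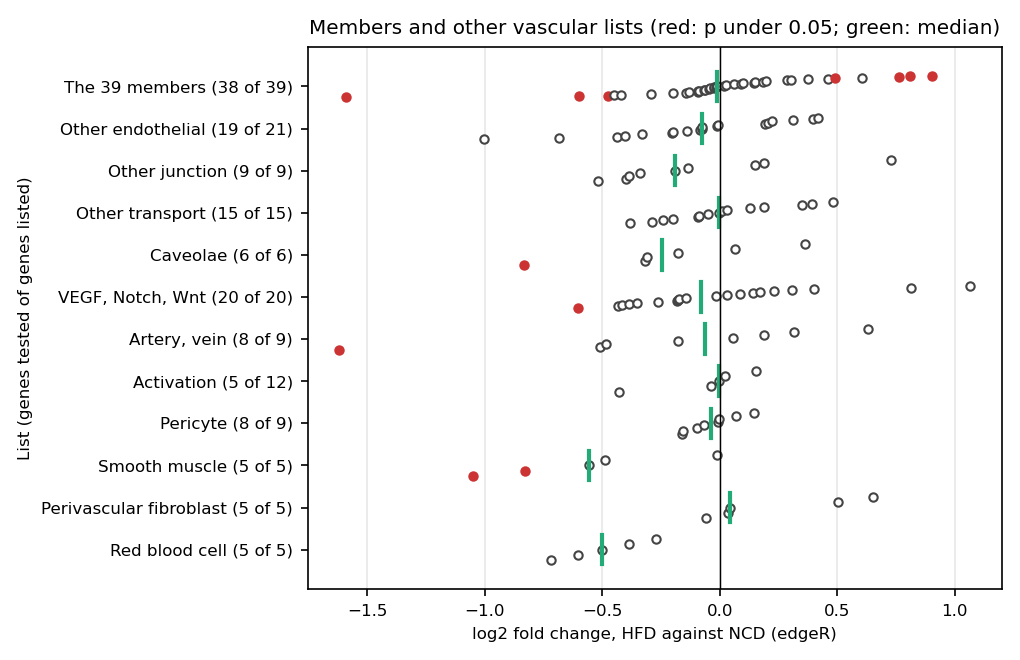
log2 fold change, HFD against NCD (edgeR), of each gene tested in the 39 genes, in 7 further vascular lists and in 4 lists of markers of other vascular and blood cells, with green bars for medians and red points for an unadjusted p under 0.05. The medians run from −0.24 for the caveolar list to 0.04 for the perivascular fibroblast markers, except for the smooth muscle and red blood cell markers, at −0.56 and −0.50.

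Other cell types of the captured tissue also varied. All 6 tanycyte markers, genes of the cells that line the ventricle wall near the median eminence, were higher in HFD, Col23a1 (log2 fold change 0.91) and Crym (0.89) with an unadjusted p under 0.05. Their summed levels were 135, 96.5 and 173 CPM in NCD1 to NCD3 and 213, 116 and 280 CPM in HFD1 to HFD3, with Gpr50 the most abundant per length. Of the 6 astrocyte markers 2 were higher and 4 lower, with a median log2 fold change of −0.13, and Gfap alone had an unadjusted p under 0.05, at 0.88, beside −0.22 for Slc1a3, the most abundant per length. Of the 6 microglial markers 3 were higher and 3 lower, with a median of 0.03, and C1qa alone was at that threshold, at 0.46. Of 8 genes of arcuate neurons 6 were higher and 2 lower, with log2 fold changes from −0.36 to 0.75, and the neuropeptide genes Cartpt (0.75) and Tac2 (0.60) were higher at that threshold. No oligodendrocyte, general neuron or choroid plexus marker reached that threshold. Cga, a marker of the pars tuberalis that lies beneath the median eminence, was also higher at that threshold (1.36), and measured 48.0 CPM in HFD3 against 4.17 to 14.9 CPM in the other libraries. How far the border of the captured area bears on Plvap or any other of the 39 genes was not tested.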

How the data were processed

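RNA was sequenced from LCM-dissected ARC of male mice, with 3 NCD and 3 HFD samples. The deposited table holds a raw read count and an FPKM value per gene and sample. The authors made both with HISAT2, StringTie and RSEM, on mm10 per the submitters' processing notes. Before that, reads were compared with a mouse ribosome database in bowtie2. Versions and strand use are not given in the sources used here. The table's group means, fold changes, p-values and FDR are the authors' own comparison and were not used.

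Counts were fitted with edgeR 4.0.16 (filterByExpr, TMM, quasi-likelihood test, diet only, two-sided) in R 4.3.3, with Benjamini-Hochberg adjustment over 14188 genes, and the script was tested on simulated data. CPM of genes used TMM library sizes. The limits for a count of 0 rest on 3 counts over the total counts, without TMM, and cover counting error only. Ensembl identifiers were matched to GENCODE M21 for 22267 of 22322 genes. The 39 genes and all lists were chosen with earlier results of these data known. Of the 39, sample values were given for genes with an unadjusted p under 0.05, for genes without overlap between diets, and for Cldn5, Pecam1, Slc2a1, Plvap, Vegfa, Icam1 and Vcam1. Values of single libraries for Erg, Itm2a, Cdh5, Kdr and Tjp1 fall outside this rule and were chosen after their values were seen. Of each other list, genes with that p or the smallest p were named, and of each marker list also the gene highest in FPKM. Alternatives were RLE size factors, library totals, DESeq2 1.42.0, count filters of 1 and of a mean of 50, limma 3.58.1 on log2(FPKM + 1) or log2(FPKM + 0.1) with a mean FPKM of at least 0.5, a replicate block, log2 total count as a covariate, and leaving out each library.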

Additional observations from a re-analysis of the deposited data

How the results depend on the processing

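Over 17 alternatives, 575 of 600 values for single genes of the 39 kept their side of an unadjusted p of 0.05, 21 lost it and 4 gained it. No gene with p under 0.05 changed direction. The 70 changes of sign fell on 24 genes without such a p, whose log2 fold change in the main fit was at most 0.30 in size. After a change of sign the value largest in size was −0.32, for Tjp1 without NCD3 and HFD3. The median of the 38 genes stayed between −0.05 and 0.06. At an adjusted p under 0.05, the 8 genes called in the whole table became 19 with DESeq2, 15 with all genes of at least 1 count, 5 with limma at either FPKM pseudocount, 15 with the log2 total as a covariate and 1 to 16 when 1 library was left out. Of the 39, Apold1 was the 1 gene called with DESeq2 (adjusted p = 0.00247), with genes of at least 1 count (0.0384) and with the covariate (0.0402), and none of the 39 was called when 1 library was left out. At an unadjusted p, the 326 genes became 197 without HFD1 to 1178 without NCD3. The 7 of the 39 became 3 to 7 when 1 library was left out (3 without HFD1, 4 without NCD2), and the counts of higher and lower genes, 4 and 3, ranged over 2 to 5 and 1 to 3. The 3 of the other vascular lists became 5 with DESeq2, with at least 1 count and with the covariate, and 2 to 7 when 1 library was left out. Leaving out NCD3 and HFD3 together, and Ly6c1 summed with Ly6c2, were chosen after seeing the data. The former gave 716 genes at an unadjusted p and 5 in the other lists. Beyond single libraries, an unadjusted p under 0.05 was lost by Mfsd2a with library totals alone (log2 fold change 0.48), by Mfsd2a and Angpt1 with limma at both pseudocounts (0.43 and 0.46, −0.47 and −0.57), and by Sox18 (0.74) and Cldn5 (−0.37) with the covariate. The cause of these changes was not tested.

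The replicate numbers were not taken to pair the samples, since neither the labels nor the methods say that they do. Samples with the same replicate number correlated in their deviations from the diet means at −0.01, 0.11 and 0.37 for replicates 1, 2 and 3. A replicate block gave 17 genes at an adjusted p under 0.05 and 589 at an unadjusted p. It called 1 of the 39, Apold1 (adjusted p = 0.0334), and 6 genes of the other lists at an unadjusted p. With 3 samples per diet and few counts, genes such as Erg, Angpt2 and Icam1 could show only large differences.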

Other observations

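The neighbours of Ly6c1 and Ly6a on chromosome 15 were read after the values of that pair were seen. Ly6e had a log2 fold change of 0.39 (edgeR, adjusted p = 0.999), and Ly6h, which neurons express, one of −0.03 (edgeR, adjusted p = 0.999). Among the 39 genes, Eng overlaps Fpgs and Egfl7 overlaps Agpat2 on the opposite strand, so their values carry the same limit of unknown strand use as Nos3. Egfl7 also overlaps Gm20532 on the same strand, which counting by strand would not separate, and Gm20532 had 0 counts in every library. The 6 genes of the other vascular lists whose diets did not overlap (7.32% of 82, background 6.47%) were Ctla2a, Icam2, Slc19a3, Cav1, Nrp1 and Gkn3.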
